A study of Mus musculus and Rattus norvegicus with 24 samples.

Results

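The genes described here are the small nucleolar RNAs (snoRNAs), the microRNA genes and the long noncoding genes that carry them in their introns or exons. They were taken by symbol from the count table of 24 single cells: every gene named Snor, Snhg, Mirlet or Mir with a number. Of 9595 listed genes, 56 matched. They were 12 box H/ACA snoRNAs (the Snora genes), 9 box C/D snoRNAs (the Snord genes), 23 microRNA genes and 12 host genes, of which 10 were Snhg genes and 2 were microRNA hosts. No listed gene carried a Mirlet name. Together the 56 genes held 1897 of 2780577 counts, 48 of them had a count in at least 1 cell, and 8 had none (7.21% of all listed genes had none).

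The table covers 3 groups of 8 cells. Adult cells were ventricular cardiomyocytes of adult wild-type rats (genotype WT). Transplanted cells were cardiomyocytes made from mouse embryonic stem cells that carry Isl1-Cre, Rosa-RFP and aMHC-GFP, injected into a neonatal rat heart and recovered after 30 days. Cultured cells came from stem cells with the same 3 alleles and spent 30 days in vitro. The aMHC promoter drives its reporter in cardiomyocytes, and Isl1-Cre with Rosa-RFP marks cells whose ancestors made Isl1, a factor of cardiac progenitors. Cells reached the libraries by FACS or by manual picking. Whether the line is 1 clone, and which animal or dish each cell came from, is not given in the sources used here. Each group was therefore counted as 1 sample, and no test between groups was run. All intervals below treat counts as independent and leave out differences between cells. Amplified reads are not independent molecules, so the intervals are too narrow even for counting error. Adult cells are rat and the other cells mouse, and mm10, a mouse build, is named for all of them, so species and maturity cannot be told apart in the adult group.

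SnoRNAs are cut from introns and stay in the nucleolus. Box H/ACA snoRNAs guide the conversion of uridine to pseudouridine in ribosomal RNA, and box C/D snoRNAs guide methylation of its ribose. MicroRNA genes are transcribed as long primary transcripts, which Drosha and Dicer trim to short RNAs that repress messenger RNAs within Argonaute complexes. Mir208a, which lies in an intron of the alpha myosin heavy chain gene Myh6, is a known microRNA of heart muscle. Mature microRNAs and most finished snoRNAs have no poly(A) tail. The labels' protocol converted mRNA to cDNA with a template-switching enzyme, so a count on one of these genes may come from a precursor, a host transcript or a similar gene, and was not a measure of the mature RNA.

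The sequences that matter for the results are those of the genes with the most counts, of the cluster found in a single cultured cell and of the heart microRNA. Mature microRNAs are given 5′ to 3′ from RefSeq on GRCm38.p6 with the seed, bases 2 to 8, in capitals.
miR-682: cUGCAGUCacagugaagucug
miR-6236: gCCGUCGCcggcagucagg
miR-374b-5p: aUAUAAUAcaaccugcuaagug
miR-374c-5p: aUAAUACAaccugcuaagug
miR-421-5p: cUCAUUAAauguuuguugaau
miR-208a-3p: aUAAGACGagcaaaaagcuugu
RefSeq gave 30 mature sequences for 20 of the 23 microRNA genes, with 30 distinct seeds, so no seed was shared between genes. The whole of miR-374c-5p equals bases 3 to 22 of miR-374b-5p, which shifts its seed.

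The snoRNAs are given from GENCODE M21 transcripts on GRCm38, 5′ to 3′. Capitals mark ACA placed 3 bases before the 3′ end for H/ACA snoRNAs, and TGATGA within the first 20 bases with CTGA within the last 20 bases for C/D snoRNAs, all read on the transcript strand.
Snora81: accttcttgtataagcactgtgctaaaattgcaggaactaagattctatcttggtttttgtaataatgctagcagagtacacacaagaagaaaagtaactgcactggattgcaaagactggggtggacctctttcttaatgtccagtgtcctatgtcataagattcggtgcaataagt
Snora23: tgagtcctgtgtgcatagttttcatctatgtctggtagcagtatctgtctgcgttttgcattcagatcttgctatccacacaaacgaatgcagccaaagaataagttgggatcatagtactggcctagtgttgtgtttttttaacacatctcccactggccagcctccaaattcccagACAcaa
Snord2: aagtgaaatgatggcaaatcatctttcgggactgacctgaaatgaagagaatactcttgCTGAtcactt
Snora81 and Snora23 are shown because they were the H/ACA snoRNAs with the most counts, and Snord2 as a C/D snoRNA inside the same host gene as Snora81, chosen after its values were seen. Snord2 holds CTGA in its last 20 bases and lacks TGATGA in its first 20 bases. The ACA triplet stood 3 bases before the end in 9 of the 12 H/ACA snoRNAs, against 18.3% of 1507 annotated snoRNA transcripts. Snora81, as annotated, lacks it there. TGATGA stood in the first 20 bases of 5 of the 9 C/D snoRNAs (21.7% of all transcripts) and CTGA in the last 20 bases of 9 of 9 (35.4%).

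Single adult cells held 108546 to 223744 counts, transplanted ones 88796 to 344224 and cultured ones 16099 to 60789. Sums over the groups were 1271528, 1302871 and 206178 counts. A level in CPM is a count scaled to a total of 1000000 counts of the group or cell. A group with no count is taken to a floor of 3 counts, which is 2.36 CPM in adult, 2.30 CPM in transplanted and 14.6 CPM in cultured cells. The 10 cardiomyocyte markers took a median of 13.1% of counts in adult cells (11.0 to 15.7%), 13.2% in transplanted cells (10.3 to 19.0%) and 3.08% in cultured cells (0 to 17.5%). Cultured cells F, G and H had 0.00541%, 0% and 0.00419%, so for these cells the label is not borne out by their markers. Cultured cells B, C, D and E had 4.96%, 2.51%, 5.48% and 5.30% of their counts on Rpph1, the RNA of RNase P, and 8.59 to 13.2% on Rn45s, the ribosomal RNA precursor. The other cultured cells had at most 0.0574% on Rpph1. On Rn45s, cultured A, F, G and H had 1.84%, 1.29%, 2.44% and 5.44%, and adult and transplanted cells at most 1.95% and 1.78%. The main values were also computed without cultured cells F, G and H and without cultured cells B to E, choices made after the data were seen. Leaving out B to E keeps F, G and H and cultured A, which had 1.47% of its counts on cardiomyocyte markers. Values in that setting thus rest mostly on cells whose label is not borne out by their markers. Among markers of other cell types, fibroblast genes took at most 0.000582%, 0.000511% and 0.209% of an adult, transplanted or cultured cell, with 1, 1 and 4 of 8 listed genes having counts. Col3a1, Dcn and Postn were at 0 in all groups. Col1a2, Pdgfra, Fn1 and Vim had counts in cultured cells, where the fibroblast list took a median of 0.0907%. In adult cells only Lum of that list had counts, and in transplanted cells only Vim. Smooth muscle and pericyte genes took at most 0.164%, 0.00901% and 0.177%, and the 3 listed pluripotency genes at most 0.762%, 0.0372% and 0.135%. Of these, Sox2 had 2319 adult counts in 8 cells, 212 transplanted counts in 8 cells and 26 cultured counts in 3 cells, Esrrb had 27 counts in 1 adult cell, and Nanog had 1 cultured count. The part of these cells or markers in the results below was not tested.

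Detection was sparse. A count in at least 1 cell was found for 14 of 56 genes in adult cells (25.0%), 14 in transplanted cells (25.0%) and 34 in cultured cells (60.7%). The same shares over all 9595 listed genes were 38.1%, 32.6% and 76.2%. Without cultured cells F, G and H, 32 of the 56 genes had cultured counts (57.1%, beside 65.7% of all listed genes), and without cultured cells B to E 10 had (17.9%, beside 45.1%). Of the 56 genes, 34 had counts in 1 cell alone, which holds for 36.4% of all listed genes, and 14 had counts in 2 cells or more. At least 4 of 8 cells had counts for 2 genes in adult cells (Snora81 and Mir682), 3 in transplanted cells (these and Mir6236) and 1 in cultured cells (Snhg14), where the shares of all listed genes were 6.66%, 5.4% and 7.74%. As deposited, the number of these genes with a count per cell was 2 to 6 in adult cells (median 4), 2 to 7 in transplanted cells (median 4) and 1 to 11 in cultured cells (median 5).

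After each cell was thinned to 16099 counts, the depth of the shallowest cell, the expected number was 1.62 to 4.15 in adult cells (median 2.47), 0.732 to 4.58 in transplanted cells (median 1.90) and up to 7.55 in cultured cells (median 4.71). The 3 ranges overlap. More genes of every kind were detected in cultured cells at that depth, with medians of 687 genes per adult, 606 per transplanted and 1460 per cultured cell. As a share of all genes detected, the members made up medians of 0.317%, 0.330% and 0.284%.

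**Figure D1:**
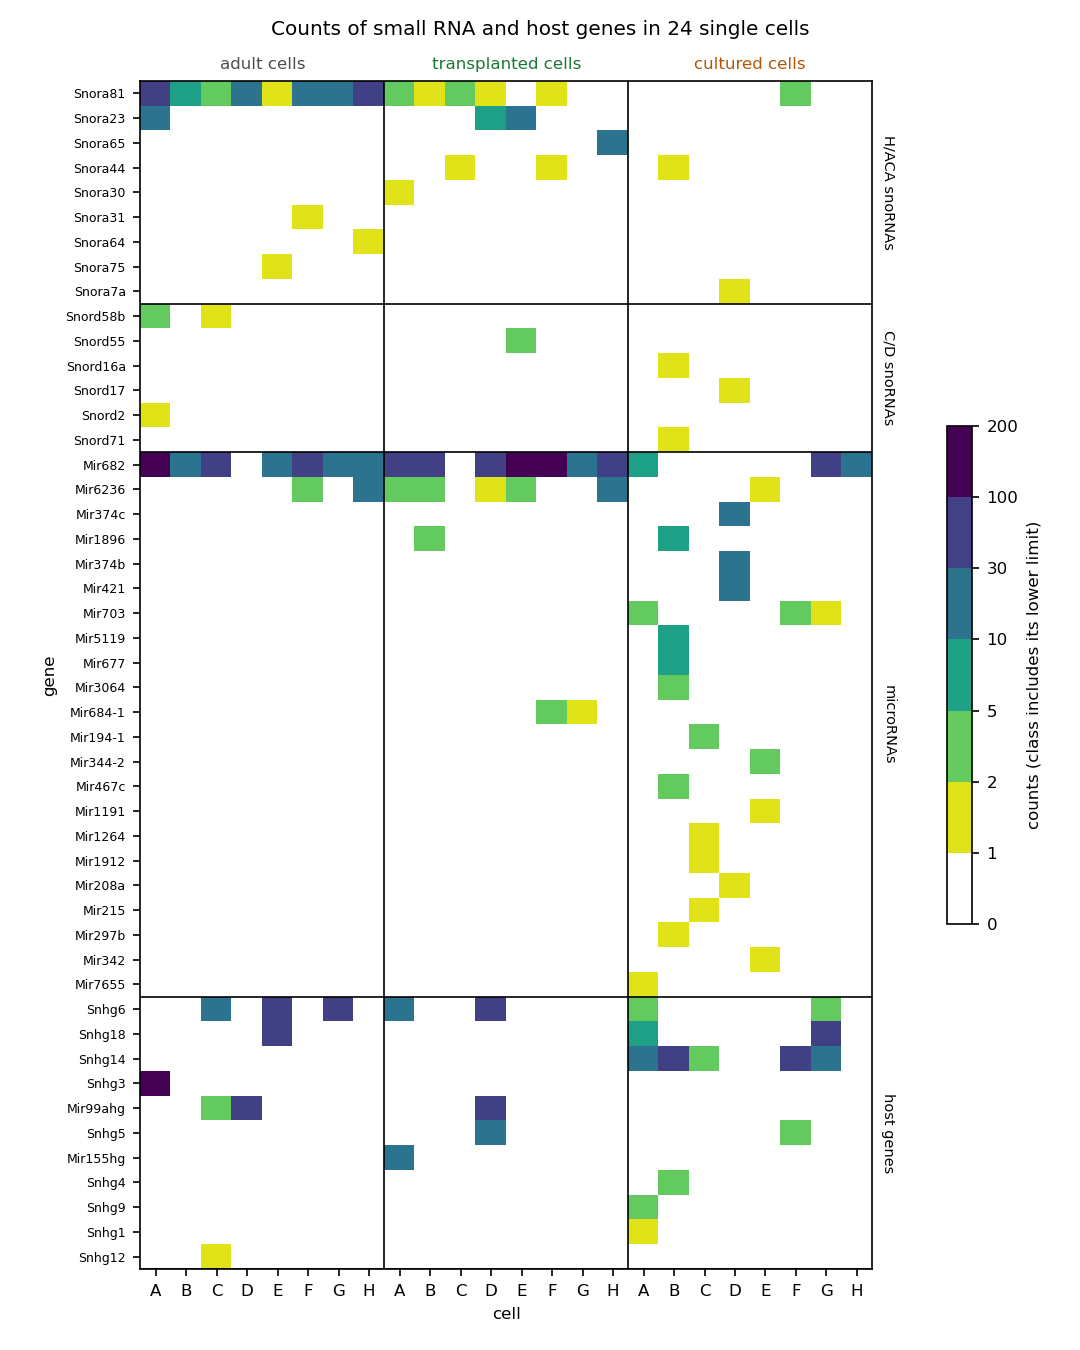
Counts of the 48 genes with at least 1 count (rows, by class and then by total) in each of the 24 cells (columns, adult, transplanted and cultured), with colour classes from 1 to 200 and white for 0. Snora81 and Mir682 run across most adult and transplanted cells, while most microRNA genes have counts in 1 cultured cell.

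The 56 genes held 849 adult counts, a share of 0.0668% (0.0624 to 0.0714, exact Clopper-Pearson 95%), 674 transplanted counts, a share of 0.0517% (0.0479 to 0.0558), and 374 cultured counts, a share of 0.181% (0.163 to 0.201). The share per cell was 0.0275 to 0.139% in adult cells (median 0.0480%), 0.00563 to 0.133% in transplanted cells (median 0.0491%) and 0.0373 to 0.499% in cultured cells (median 0.139%). The adult and transplanted medians lay close together, and 3 cultured cells (A, F and G) lay above all other cells. Against cultured cells, the share was 3.51-fold lower in transplanted (3.08 to 3.98) and 2.72-fold lower in adult cells (2.40 to 3.07). With TMM scaling, which moved every ratio to cultured cells up by 0.92 on the log2 scale, they were 1.86-fold and 1.43-fold lower, under 2-fold. Without cultured cells F, G and H they were 2.40-fold and 1.86-fold lower. With cultured cells B to E left out, which keeps mostly cells with almost no cardiomyocyte markers, they were 5.47-fold and 4.24-fold lower. The adult share was 1.29-fold that of transplanted cells (1.17 to 1.43), with 0.994 without adult A and 1.64 without transplanted D. Without Mir682, the share was 7.23-fold lower in transplanted (17.3-fold without transplanted D) and 3.41-fold lower in adult than in cultured cells, and 2.12-fold higher in adult than in transplanted cells (5.08-fold without transplanted D).

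**Figure D2:**
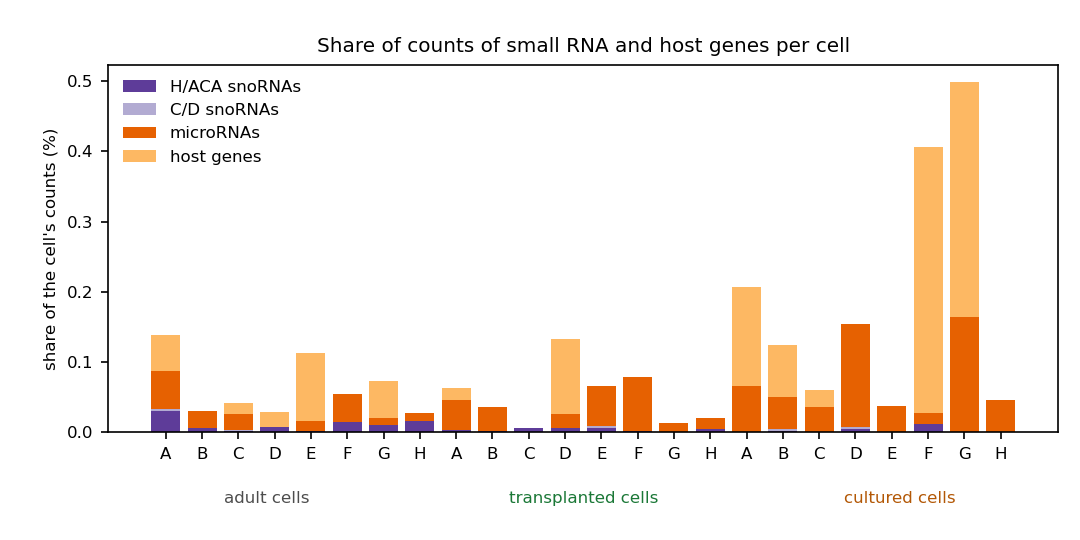
Share of each cell's counts (%, stacked bars) on H/ACA snoRNAs, C/D snoRNAs, microRNA genes and host genes, in adult, transplanted and cultured cells. The highest bars are cultured G (0.499%) and F (0.406%), mostly host genes, and H/ACA counts are seen mainly in adult cells.

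A gene was compared between 2 groups when it had at least 10 counts over both, and called different when its CPM ratio passed 2-fold. Between transplanted and cultured cells 15 members could be compared: 3 were higher in transplanted cells (22.5% of 4958 genes) and 6 were lower (64% of all genes). The higher ones were Snhg6, Mir99ahg and Mir6236, and the lower ones Snhg14, Snhg18, Mir1896, Mir374b, Mir374c and Mir421. Between adult and cultured cells 12 could be compared, with 4 higher in adult cells (23% of 5132 genes), Snora81, Snhg6, Snhg3 and Mir6236, and 5 lower (62.1%), Snhg14, Snhg18, Mir374b, Mir374c and Mir421. These comparisons share their cultured cells. Without cultured cells B to E no member was called higher in transplanted than in cultured cells. Between adult and transplanted cells 11 could be compared, with 4 higher in adult cells (44.3% of 3501 genes), Snora81, Snhg6, Snhg3 and Snhg18, and 4 lower (34.8%), Mir155hg, Mir99ahg, Snhg5 and Snora65.

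The median log2 ratio of the compared members, with 1 CPM added, was 0.0030 for transplanted against cultured cells, 0.30 for adult against cultured and -0.49 for adult against transplanted cells. Over all genes compared, the medians were -5.63, -3.85 and 0.37. With groups at 0 set to the floor, the members' medians were -0.34, 0.11 and -0.50, and those of all genes -4.53, -4.04 and 0.37. Many of the compared members had their counts in a single cell, so the ratios below are given with the cells that hold them.

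The H/ACA snoRNAs were the class with most counts in adult cells relative to the others. They had 156 adult counts (0.0123%), 49 transplanted counts (0.00376%) and 4 cultured counts (0.00194%). The adult level was 3.26-fold the transplanted one (2.35 to 4.59) and 6.32-fold the cultured one (2.42 to 23.5, and 11.5 without cultured F).

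Most of that was Snora81, a snoRNA of 178 bases at chr16:23110756-23110933 on the plus strand (GRCm38), inside Eif4a2, which encodes a translation initiation helicase. It overlaps an exon of at least 1 Eif4a2 transcript. Snora81 had 1 to 40 counts in adult cells (median 12.5), with counts in 8 of 8 cells, 0 to 4 in transplanted cells (median 1) in 5 of 8 cells, and 2 counts in cultured F alone. In CPM per cell these were 7.14 to 179 in adult cells (median 88.2), 0 to 45.0 in transplanted cells (median 6.50) and 0 to 108 in cultured cells (median 0). Adult E, with 1 count, and adult C, with 3 counts, lay within the transplanted range, so the groups overlap. The group level was 99.1 CPM in adult cells (82.5 to 118), 7.68 CPM in transplanted cells (3.68 to 14.1) and 9.70 CPM in cultured cells (1.17 to 35.0). The adult level was 12.9-fold the transplanted one (6.79 to 27.6, and 20.1 without transplanted C) and 10.2-fold the cultured one (2.77 to 85.3, and at least 6.20-fold higher without cultured F, or 4.20 without cultured cells B to E).

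Eif4a2 itself did not differ in the same way. Its level was 95.9 CPM in adult cells, 106 CPM in transplanted cells and 412 CPM in cultured cells, so the adult level was 0.906-fold the transplanted one (0.704 to 1.16). Of the 14 cells with Snora81 counts, 5 had counts of Eif4a2. Adult A, with the highest Snora81 count, 40, had none of Eif4a2, and transplanted F had 119 Eif4a2 counts with 1 of Snora81. Snord2, a C/D snoRNA in the same host, was named after its values were seen. It had 1 count, in adult A. A second snoRNA gene, Gm22519, matches Snora81 at 98.9% over 178 bases and is not among the listed genes, so reads may be shared between these loci. Since adult cells are rat cells, a difference between the rat and mouse Snora81 loci cannot be told apart from a difference in level.

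Snora23, which lies in an intron of Ipo7, a nuclear import receptor, had 27 counts in adult A, 7 in transplanted D and 12 in transplanted E, and none elsewhere. The group levels were 21.2 CPM in adult and 14.6 CPM in transplanted cells, a ratio of 1.46 (0.780 to 2.77) that rests on single cells: without adult A the adult level was at least 5.09-fold lower, and without transplanted E 3.36-fold higher. Ipo7 had no count in any adult or transplanted cell, so host and snoRNA were not seen together. Snora44 had 1 count each in transplanted C, transplanted F and cultured B. The other H/ACA snoRNAs were named after their values were seen. Snora65, in the ribosomal protein gene Rpl12, had 17 counts in transplanted H, where Rpl12 had 9, and Snora30, Snora31, Snora64, Snora75 and Snora7a had 1 count each. Snora16a, Snora28 and Snora33 had none.

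C/D snoRNAs were nearly absent from these libraries. The 9 genes had 6 adult, 4 transplanted and 3 cultured counts. All the transplanted counts of the class were in transplanted E, so without that cell its transplanted share was 0. Snord58b, on chromosome 18 in an intron of the ribosomal protein gene Rpl17, had 4 counts in adult A and 1 in adult C. The following were named after their values were seen: Snord2, Snord16a, Snord17 and Snord71 had 1 count each, and Snord12, Snord100 and Snord104 had none. Shares were 0.000472% in adult, 0.000307% in transplanted and 0.00146% in cultured cells, and the intervals of all 3 ratios include 1.

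MicroRNA genes had 287 adult, 430 transplanted and 144 cultured counts. Mir682 held 274 of the adult, 396 of the transplanted and 56 of the cultured ones. Mir682 lies at chr13:75645046-75645141 on the plus strand, inside the processed pseudogene Gm4149. It had 0 to 122 counts in adult cells (median 23.5), with counts in 7 of 8, 0 to 114 in transplanted cells (median 34.5) in 7 of 8, and 0 to 36 in cultured cells (median 0) in 3 of 8, which were A, G and H. In CPM per cell it had 0 to 545 in adult cells (median 182), 0 to 753 in transplanted cells (median 247) and 0 to 1589 in cultured cells (median 0). The ranges overlap throughout. The group levels were 215 CPM in adult cells (191 to 243), 304 CPM in transplanted cells (275 to 335) and 272 CPM in cultured cells (205 to 353). The transplanted level was 1.12-fold the cultured one (0.844 to 1.51, and 2.79 without cultured G), the adult level was 0.793-fold the cultured one (0.593 to 1.08, and 1.98 without cultured G) and 0.709-fold the transplanted one (0.606 to 0.829). Under TMM scaling the transplanted level was 2.11-fold and the adult level 1.503-fold the cultured one, so the adult direction flips. Without cultured cells F, G and H these ratios were 4.77 and 3.38, and without cultured cells B to E 0.460 and 0.326.

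The 96 bases of Mir682 match 25 other annotated genes at 90% identity or more over at least 80% of their length: Rpl37a, which encodes a protein of the large ribosomal subunit, 12 pseudogenes and 12 microRNA genes. Rpl37a differs at 1 base of 96 (98.96% identity). The listed gene Rpl37a had 41 adult, 49 transplanted and 12 cultured counts, 32.2, 37.6 and 58.2 CPM. Counts of Mir682 therefore cannot be told apart from reads of Rpl37a and its pseudogenes. The same holds for Mir703, which matches Eef1a1, an elongation factor gene, at 98.2% over 109 bases, and for Mir684-1, of which 85 of 86 bases match Sumo2, a small protein modifier gene, at 100%. Mir703 had counts in 3 cultured cells, 3 in A, 3 in F and 1 in G, and Mir684-1 in 2 transplanted cells, 3 in F and 1 in G. Of the 44 snoRNA and microRNA genes, 13 had a near copy of any kind and held 83.8% of the 1083 counts of the 44. Only 4 of them (Mir682, Mir684-1, Mir703 and Snora75) had a copy in a protein gene, with 68.1% of the counts, nearly all of it Mir682 (67.0%).

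**Figure D3:**
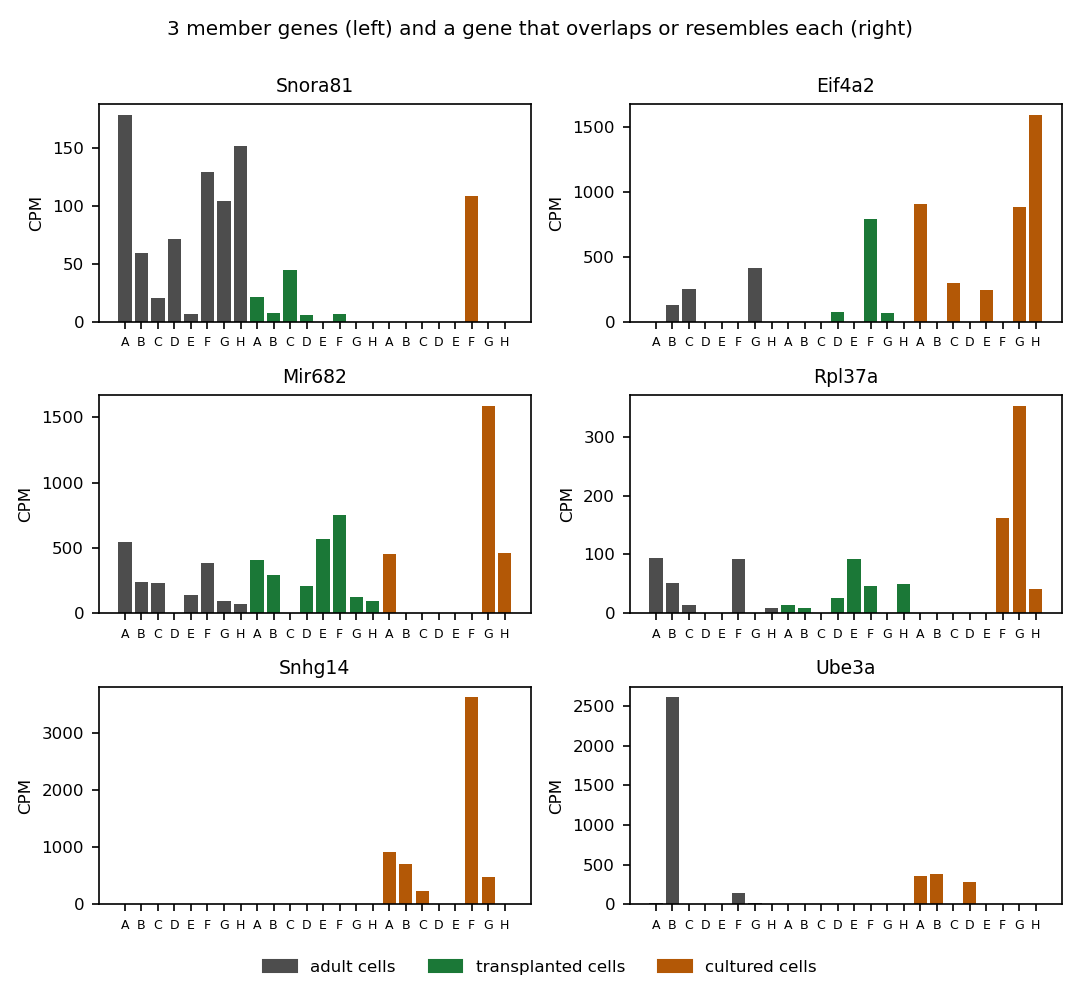
CPM per cell of Snora81, Mir682 and Snhg14 (left) beside Eif4a2, which contains Snora81, Rpl37a, which differs from Mir682 at 1 base, and Ube3a, which lies opposite Snhg14 (right), with an axis of its own for each panel. Snora81 is seen in 8 of 8 adult cells and Snhg14 in 5 of 8 cultured cells, and neither follows the gene at its right.

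Without Mir682, microRNA genes had 13 adult, 34 transplanted and 88 cultured counts. Their share was 0.00102% in adult cells (0.000544 to 0.00175), 0.00261% in transplanted cells (0.00181 to 0.00365) and 0.0427% in cultured cells (0.0342 to 0.0526). That was 16.4-fold lower in transplanted cells than in cultured cells (10.9 to 25.1, and 10.1 without cultured D) and 41.7-fold lower in adult than in cultured cells (23.2 to 81.5, and 226 without adult H). Without cultured cells B to E these were 3.61-fold and 9.22-fold lower, on 8 cultured counts, and without cultured cells F, G and H 22.8-fold and 58.2-fold lower.

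Of 23 microRNA genes, 2 had counts in adult cells, 4 in transplanted cells and 21 in cultured cells. Of these 21, 18 (85.7%) had counts in no other group, and 19 (90.5%) had counts in 1 cultured cell alone. Of the 7310 listed genes with cultured counts, these shares were 57.0% and 53.1%. The number per cell was 0 to 2 in adult cells (median 1), 0 to 3 in transplanted cells (median 2) and 1 to 6 in cultured cells (median 3.5). In cultured cells A to H it was 3, 6, 4, 4, 4, 1, 2 and 1. The 4 cells with the most, B to E, also had the highest shares of Rpph1 and Rn45s, and their part in the result was not tested. Cultured H, with 5.44% on Rn45s and 0.0293% on Rpph1, had counts on 1 microRNA gene. Without cultured cells B to E, 3 microRNA genes had cultured counts, and without cultured cells F, G and H 21 did. After thinning to 16099 counts, the median was 0.982 per adult, 1.22 per transplanted and 3.19 per cultured cell.

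**Figure D4:**
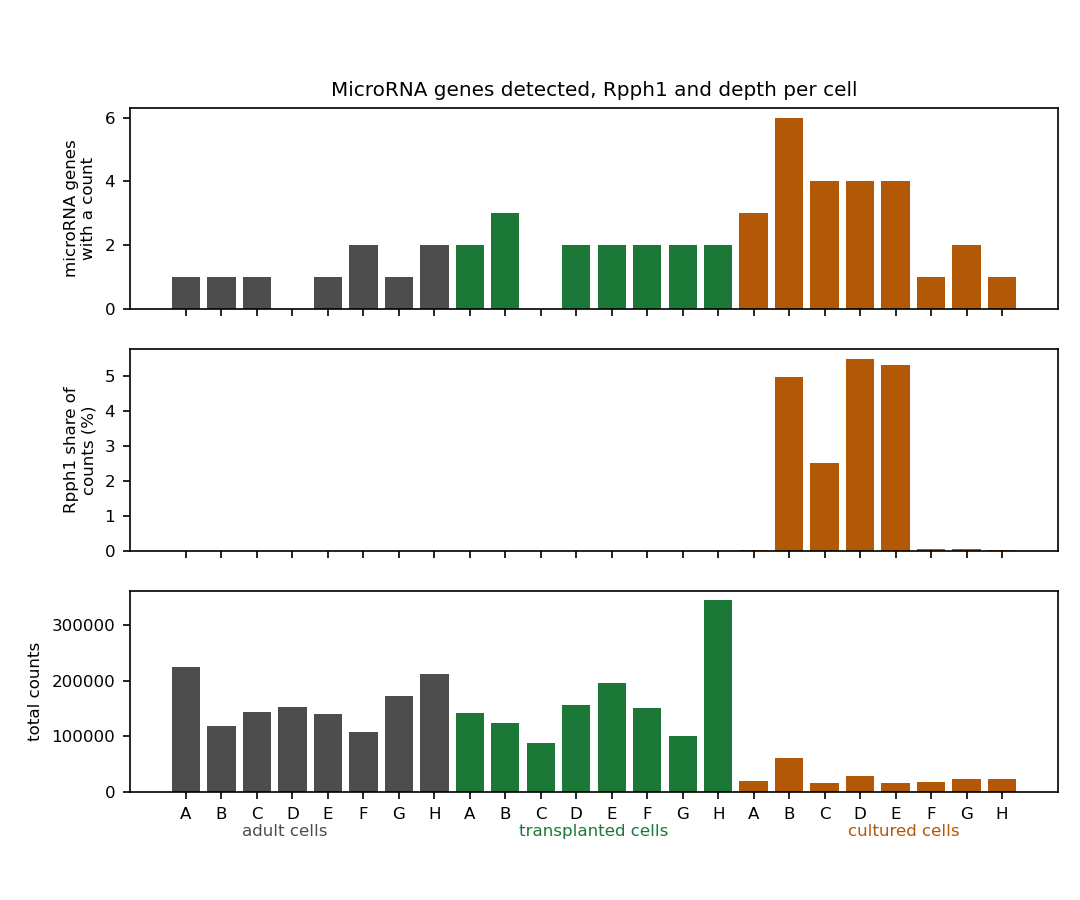
Number of microRNA genes with at least 1 count (top), share of counts on Rpph1 (%, middle) and total counts (bottom) in each adult, transplanted and cultured cell. Cultured cells B to E have 4 to 6 microRNA genes and 2.51 to 5.48% Rpph1, at totals of 16099 to 60789 counts.

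Mir6236 was the microRNA gene, other than Mir682, seen in the most cells, 8 of 24. It had 2 counts in adult F and 11 in adult H, 1 to 17 counts in transplanted A, B, D, E and H, and 1 count in cultured E. Group levels were 10.2 CPM in adult cells (5.44 to 17.5), 19.96 CPM in transplanted cells (13.04 to 29.2) and 4.85 CPM in cultured cells (0.123 to 27.0), and the intervals of all 3 ratios include 1. The calls against cultured cells rest on that single cultured count: without cultured E the transplanted level was at least 1.26-fold higher, under 2-fold, and no call was left. Mir6236 overlaps no other annotated gene and had no near copy among GENCODE M21 transcripts. Copies outside those transcripts were not sought. Mir1896 had 4 counts in transplanted B and 8 in cultured B, 12.6-fold lower in transplanted cells (3.39 to 57.4). Without cultured B no cultured count was left and the call was lost. Mir1896 lies in an exon of the noncoding gene 4930470G03Rik on the same strand, which is not among the listed genes. It also lies in an exon opposite Zscan26, a zinc finger gene, which had 3 counts in transplanted B and 47 in cultured B.

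The X-chromosome genes Mir374b, Mir374c and Mir421, singled out after their values were seen, had 12, 16 and 12 counts, all in cultured D, and none in adult or transplanted cells. Against cultured cells, Mir374b and Mir421 were at least 24.7-fold lower in adult and at least 25.3-fold lower in transplanted cells, and Mir374c at least 32.9-fold and 33.7-fold lower. Without cultured D no ratio could be given. They lie within Ftx, a noncoding gene near the X-inactivation centre, Mir374b and Mir421 on its strand and Mir374c on the opposite strand over Mir374b, so without a known strand setting the counts of this pair cannot be told apart. Ftx had 61 counts in cultured D and 20 in cultured F, and none in adult or transplanted cells. Mir208a had 1 count in all cells, in cultured D, the cultured cell with the most Myh6 counts (300). Myh6 had 1863 adult and 1425 transplanted counts without a count of Mir208a.

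Other microRNA genes that lie near each other were also seen in the same cell, and those given here were chosen after their values were seen. Of 15 pairs of members within 50 kb, 11 had counts on both genes and 7 of these shared a cell. The 7 include the pairs among Mir374b, Mir374c and Mir421, and Snora81 with Snord2 in adult A. The rate for members that lie apart was not computed, so no link to position can be read from this count. Mir1264 with Mir1912 in Htr2c, a serotonin receptor gene, and Mir194-1 with Mir215, opposite the tRNA synthetase gene Iars2, had counts in cultured C alone. On their own strand, Mir194-1 and Mir215 lie inside 2010103J01Rik, which is not among the listed genes. Mir297b with Mir467c in Sfmbt2 had counts in cultured B alone. Each of these pairs rests on 1 cell. Cultured B also held all the counts of Mir677 (6, in the ATP synthase gene Atp5b, which had 9 counts there), Mir5119 (6, in Cdk12, 0 there) and Mir3064 (4, in the helicase gene Ddx5, 96 there). Mir1839 was the microRNA gene with no count in any cell.

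Over all short members, 39 of 44 lay inside a gene on the same strand, 19 in an exon of at least 1 transcript and 20 in introns of every transcript, and for 30 the host is listed. Among 41 cases of a member with counts in a cell, the host had counts in the same cell in 13 (31.7%). In the cells of the same group without counts of the member, the host had counts in 61 of 183 (33.3%). With at least 5 counts of the member, these shares were 6 of 14 (42.9%) and 8 of 48 (16.7%). The cases are not independent. Mir374b and Mir421 both count Ftx in cultured D, and Snora81 alone gave 14 of the 41 cases. The difference between the shares was not tested.

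Host genes had 400 adult, 191 transplanted and 223 cultured counts, shares of 0.0315%, 0.0147% and 0.108%. Against cultured cells, the class was 7.38-fold lower in transplanted (6.05 to 8.998, and 51.7-fold without transplanted D) and 3.44-fold lower in adult cells (2.91 to 4.06). Without cultured cells F, G and H these were 3.72-fold and 1.73-fold lower, and without cultured cells B to E 13.99-fold and 6.52-fold lower. The adult level was 2.15-fold the transplanted one (1.80 to 2.56, and 15.0-fold without transplanted D).

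Snhg14, the long transcript of the imprinted Prader-Willi and Angelman region that carries snoRNA repeats and runs opposite the ubiquitin ligase gene Ube3a, was seen in cultured cells alone. No adult or transplanted cell had a count, while cultured A had 18, B 43, C 4, F 67 and G 11, with D, E and H at 0. The cultured level was 694 CPM (585 to 817), so Snhg14 was at least 294-fold lower in adult and at least 301-fold lower in transplanted cells. Without cultured F these bounds were 172-fold and 176-fold, without cultured cells F, G and H 195-fold and 200-fold, and without cultured cells B to E 480-fold and 491-fold. Per length of its exons the cultured level was 26.6 CPM per kb. Ube3a had 309 of its 330 adult counts in adult B, 0 transplanted counts and 38 cultured counts, in A, B and D. Whether counting used strand is not given in the sources used here, so reads of the overlap may have gone to either gene. The gene spans chr7:59307924-59975759 on the minus strand and contains 208 annotated small RNA genes.

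Snhg6, host of a snoRNA, had 20, 52 and 92 counts in adult C, E and G, 12 and 71 in transplanted A and D, and 2 and 3 in cultured A and G. The adult level was 129 CPM (110.0 to 150.3), the transplanted level 63.7 CPM (50.7 to 79.0) and the cultured level 24.3 CPM (7.87 to 56.6). The adult level was 5.32-fold the cultured one (2.23 to 16.6, 2.70 without adult G and 11.8 without cultured G) and 2.02-fold the transplanted one (1.55 to 2.67, 1.03 without adult G and 12.3 without transplanted D). The transplanted level was 2.63-fold the cultured one (1.08 to 8.30), but 2.32-fold lower without transplanted D and 1.08-fold without cultured cells B to E.

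Snhg18 had 84 counts in adult E, none in transplanted cells, and 5 and 62 in cultured A and G. The adult level was 4.92-fold lower than the cultured one (3.51 to 6.86), but 2.42-fold higher without cultured G and 1.86-fold higher without cultured cells F, G and H. In transplanted cells it was at least 141-fold lower than in cultured cells, and at least 11.8-fold without cultured G. Against transplanted cells it was at least 28.7-fold higher in adult cells, on 1 cell. Mir99ahg, which carries the Mir99a, Mirlet7c and Mir125b cluster, had 2 and 33 counts in adult C and D, 77 in transplanted D and none in cultured cells. It was at least 4.06-fold higher in transplanted than in cultured cells, and at least 1.67-fold without cultured cells B to E. The adult level was 2.15-fold lower than the transplanted one (1.42 to 3.30), but at least 10.5-fold higher without transplanted D. Snhg5 had 19 counts in transplanted D and 3 in cultured F, a ratio of 1.002 (0.295 to 5.29).

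The remaining host genes were named after their values were seen. Snhg3, a snoRNA host, had 116 counts, all in adult A, which made it at least 6.27-fold higher in adult than in cultured and at least 39.6-fold higher in adult than in transplanted cells. It overlaps Rcc1 on the same strand, which had 3 counts in all. Mir155hg, host of an immune microRNA, had 12 counts, all in transplanted A. In cultured cells Snhg4 and Snhg9 had 2 counts each and Snhg1 had 1, Snhg12 had 1 count in adult C, and Snhg8 had none. Transplanted D thus held 77 of 77 Mir99ahg, 71 of 83 Snhg6 and 19 of 19 Snhg5 counts of its group.

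**Figure D5:**
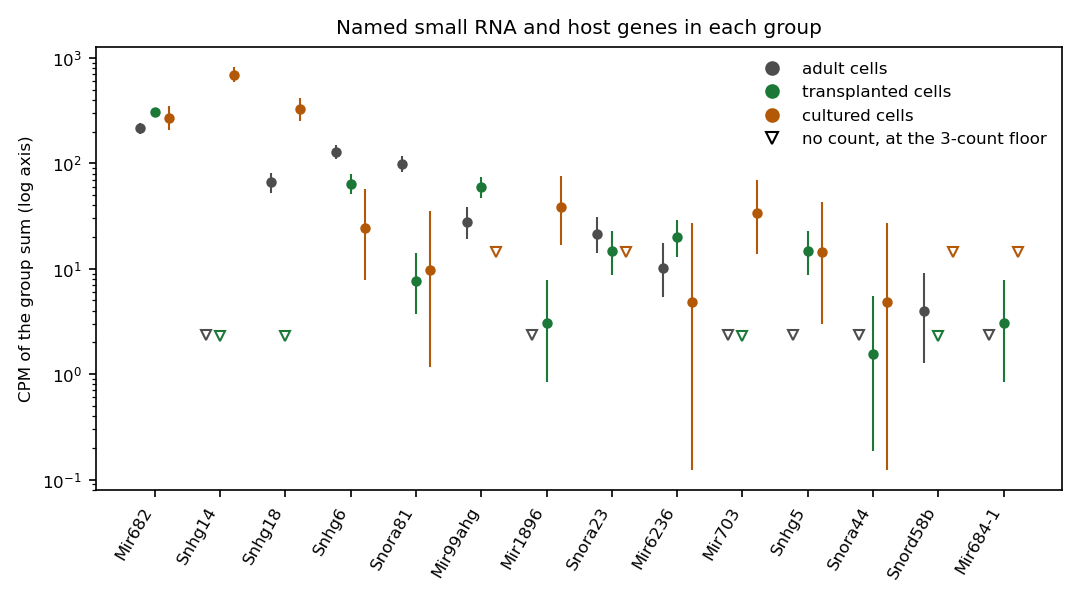
CPM of the group sums (log axis) for the 14 genes named by the rule, in adult, transplanted and cultured cells, with exact Poisson 95% bars that treat counts as independent. Open triangles stand for groups with no count, drawn at the floor of 3 counts. Snora81 is highest in adult cells, Snhg14 is seen in cultured cells alone, and Mir682 lies between 215 and 304 CPM in all 3 groups.

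The protein genes that make and use these RNAs were few in the libraries, and the share of all genes past 2-fold is as given above. Some of those named below lie outside the 3 highest of their list and were chosen after their values were seen. Of the box H/ACA ribonucleoprotein genes, 3 of 4 compared were lower in transplanted than in cultured cells and none higher. Dkc1, the pseudouridine synthase, had 9 counts in 2 adult cells, none in transplanted cells and 26 in 3 cultured cells, at least 54.8-fold lower in transplanted and 17.8-fold lower in adult cells (8.09 to 43.2) than in cultured cells. Nop10, its small partner, was seen in all groups, at 319 CPM in adult, 188 CPM in transplanted and 296 CPM in cultured cells. In adult against transplanted cells, 2 of 3 were higher and none lower, and in adult against cultured cells 3 of 5 were lower and 1 higher. Of the box C/D genes, 4 of 8 were lower and 1 higher in transplanted than in cultured cells, and 4 of 5 lower and 1 higher in adult than in cultured cells. With cultured cells F, G and H left out, 2 of 4 H/ACA genes were lower and 2 higher in adult cells. In transplanted cells 2 of 3 were then lower and none higher. The C/D calls were then 2 of 5 lower and 1 higher in adult cells, and unchanged in transplanted cells. Nop58, a core protein, had 40 counts in 1 adult cell, none in transplanted cells and 218 in 2 cultured cells. Of the genes that release and trim snoRNAs, 6 of 7 were lower in transplanted than in cultured cells and none higher. In adult against cultured cells 4 of 8 were lower and 1, the exosome gene Exosc7, was higher, with 128 counts in 1 adult cell and 10 in 1 cultured cell. In adult against transplanted cells 5 of 7 were higher and 2 lower, with a median log2 ratio of 4.06 beside 0.37 for all genes. That median was 1.19 to 4.56 with 1 cell left out. Of the higher genes, Exosc3, Exosc4, Exosc7 and Exosc10 had 20, 26, 128 and 134 adult counts, each gene in 1 adult cell. Skiv2l2 had 41 counts in 3 adult cells. The 2 lower genes, Xrn2 and Exosc8, had 86 and 36 transplanted counts, each gene in 1 transplanted cell. Of the C/D genes in that comparison, 2 of 7 were higher and 3 lower. Without cultured cells B to E the median of the release list was 3.12 for transplanted (3 genes) and 4.06 for adult (7 genes) against cultured cells, where all cells gave -5.63 and -0.48. By the calls, 0 of 3 were then higher and 1 lower in transplanted, and 2 of 7 higher and 1 lower in adult cells. The adult against cultured medians of the H/ACA and C/D lists were then 1.60 and 1.53, where all cells gave -1.52 and -1.36. The calls were 0 of 4 higher and 2 lower for H/ACA, and 1 of 4 higher and 2 lower for C/D. Of all genes, 23.6% and 23.4% were then higher, and 49.5% and 47.3% lower, in transplanted and adult cells. Since medians had 1 CPM added and calls used the floor, these medians are not read as a change of direction.

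MicroRNA processing genes were lower than in cultured cells for 6 of 6 compared, both in transplanted and in adult cells, with medians of -6.80 and -5.65 (log2, 1 CPM added) beside -5.63 and -3.85 for all genes. Drosha, the nuclear enzyme that cuts primary transcripts, had 9 counts in 1 adult cell, none in transplanted cells and 11 in 1 cultured cell. Dicer1 had no count in any cell. Ddx5, a helicase of the Drosha complex, had 66.1 CPM in adult, 25.3 CPM in transplanted and 1169 CPM in cultured cells, 17.7-fold lower in adult (13.7 to 23.0) and 46.1-fold lower in transplanted cells (32.0 to 68.6). Of the silencing complex genes, 8 of 8 were lower in transplanted and 7 of 8 in adult than in cultured cells, with medians of -6.04 and -5.97. The other one in adult cells, Tsn, was higher, with 197 counts in 2 adult cells, none in transplanted cells and 2 in cultured cells. Without cultured cells B to E, 2 of 2 processing and 2 of 3 silencing genes were lower in transplanted cells, and 3 of 3 and 3 of 4 in adult cells. Ago2, the Argonaute that cuts its targets, had counts in 2 cultured cells alone (10 counts), and Tnrc6a, its scaffold partner, had 2 adult, 6 transplanted and 84 cultured counts.

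SnoRNA host genes outside the symbol rule, many of which encode ribosomal or translation proteins, were lower than in cultured cells for 20 of 30 compared in transplanted cells, with 7 higher and a median of -1.92 (12 of 29 lower and 10 higher without cultured cells F, G and H). In adult cells 22 of 31 were lower and 5 higher, with a median of -2.47 (12 of 27 lower and 8 higher without cultured cells F, G and H). Gas5, a noncoding snoRNA host, had 11 counts in 1 adult cell, none in transplanted cells and 85 in 5 cultured cells, at least 179-fold lower in transplanted and 47.7-fold lower in adult cells (25.3 to 99.1). Atp5b, the ATP synthase beta subunit, stood at 2679 CPM in adult, 5025 CPM in transplanted and 383 CPM in cultured cells, 6.99-fold and 13.1-fold higher than in cultured cells. Of nonsense-mediated decay genes, 5 of 8 were lower and 2 higher in transplanted, and 6 of 7 lower and 1 higher in adult than in cultured cells. With cultured cells F, G and H left out, 4 of 8 were lower and 3 higher in transplanted cells. In adult cells 4 of 6 were then lower and 1 higher. Of microRNA host genes outside the rule, 14 of 16 were lower in transplanted and 13 of 14 in adult than in cultured cells. Higher were Copz1, with 195 counts in 1 transplanted cell, and Iars2, with 134 counts in 2 transplanted cells against 2 in cultured cells. Iars2 was on this list, but Mir194-1 and Mir215 lie on the strand opposite to it. Nothing particular to these lists can be read from the counts, since 64% of all genes compared were lower in transplanted and 62.1% lower in adult than in cultured cells. These shares were 49.5% and 47.3% without cultured cells B to E. Without cultured cells F, G and H they were 56.2% and 54.1%, with 26.9% and 25.8% of all genes higher.

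Other small noncoding RNAs of the table were seen almost only in cultured cells B to E. Rpph1, Rprl3, Rmrp and 4 others had 4 adult counts, no transplanted count and 6928 cultured counts, 3.36% of the cultured total. Cultured cells A, F, G and H held 39 of these counts, 0.0460% of their own totals (0.0327 to 0.0628). Rprl3, a relative of Rpph1, had 587, 75, 253 and 139 counts in cultured B, C, D and E, 5 in cultured F and none elsewhere.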

How the data were processed

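Single-cell cDNA libraries of 24 cells were read as deposited. The deposited values are whole-number read counts per gene, 9595 genes by 24 cells. The submitters' processing notes name TopHat2 2.1.0, HTSeq, DESeq2 and mm10; of their settings, the annotation, the use of strand and the rule that kept these genes, nothing is given in the sources used here. Counts carry no molecular identifiers. No 2 cells agreed within sampling noise (chi-square per degree of freedom at least 28.9 in adult, 36.8 in transplanted and 4.98 in cultured pairs).

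The members and gene lists were chosen with earlier results of these data known. Letters A to H only name cells. Counts were summed over the 8 cells of a group and scaled to 1000000 (CPM). Sums carry exact Poisson, shares Clopper-Pearson and ratios exact conditional binomial 95% intervals. A group at 0 was set to 3 counts and gives a bound; no ratio was given where both groups had 3 counts or fewer. Comparisons needed 10 counts over both groups and called ratios past 2-fold. Medians used 1 CPM added. Detection was thinned by expectation to 16099 counts.

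Named genes were, per class, the 6 highest mean CPM among members in at least 2 cells, members in at least 4 of 8 cells of a group, their hosts, and 3 genes per list; others are marked where named. Hosts, positions and snoRNA sequences came from GENCODE M21, mature microRNAs from RefSeq. Copies were sought among GENCODE M21 transcripts with blastn 2.17.0 at 90% identity over 80% of the length. Python 3.11.15, numpy 2.4.6, pandas 2.3.3, scipy 1.17.1 and matplotlib 3.10.9 were used, and the steps were tested on simulated data. R 4.3.3 with edgeR 4.0.16 and DESeq2 1.42.0 gave scaling factors only. Alternatives were these scalings, other minimum counts, folds and thinning depths, equal weight per cell, and leaving out each cell or, added after seeing the data, cultured cells F, G and H or B to E. The values of 1 C/D snoRNA are not reported here.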

Additional observations from a re-analysis of the deposited data

Results flagged for a closer look

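In groups of 8 cells, the gap between the most extreme cell and its neighbour was set against the group's range and Dixon's 95% limit. Of 19 groups of values examined, 2 went past it. The limit's rate of about 1 in 20 holds for independent, normally spread values. These values hold many zeros and some overlap, such as a class and its main gene, so that rate does not apply. Snora81 stood at 45.0 CPM in transplanted C, on 4 counts, with the next transplanted cell at 21.1 CPM. Snhg14 stood at 3626 CPM in cultured F, on 67 counts, with the next cultured cell at 909 CPM.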

How the results depend on the processing

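No paired analysis was possible because the letters of the cells only name them. For transplanted against cultured cells, the ratio over all members was 0.539 with TMM, 0.333 with DESeq2 size factors, 0.417 without cultured cells F, G and H and 0.183 without cultured cells B to E, and 0.224 to 0.364 with 1 cell left out. For adult against cultured cells it was 0.697, 0.539 and 0.236 with TMM and with those 2 sets of cells left out, and 0.284 to 0.469 with 1 cell left out. For adult against transplanted cells it was 0.994 to 1.64. Members called higher in transplanted than in cultured cells numbered 6 with 1 CPM added in place of the floor and 0 without cultured cells B to E (1 to 4 with 1 cell left out), and those called lower 10 with a minimum of 1 count (3 to 7). In adult against cultured cells, 10 were lower with a minimum of 1 count and 3 without cultured cells B to E (2 to 5), with 3 to 5 higher. In adult against transplanted cells, 2 were lower past 4-fold, with 2 to 6 higher and 3 to 5 lower as cells were left out.

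Members detected per cell had a median of 4 as deposited in both adult and transplanted cells, and of 1.46 in adult cells thinned to 5000 counts. The cultured share was 0.201% with Rn45s and Rpph1 out of the denominator, 0.124% without cultured cells F, G and H and 0.283% without cultured cells B to E. With 1 cell left out, shares were 0.0514 to 0.0746% in adult, 0.0406 to 0.0633% in transplanted and 0.142 to 0.206% in cultured cells. Of named ratios past 2-fold and of list medians past 1 on the log2 scale, leaving out 1 cell turned 5 round. Ratios nearer to 1 (Mir682, Mir6236 and Snora23) also crossed 1. So did those of Snora81 (0.480 to 1.08) and Snhg5 (0.707 to 1.36) in transplanted against cultured cells. The Snhg6 ratio of transplanted to cultured cells was 0.432 without transplanted D (0.432 to 5.85 over all cells left out), the Snhg18 ratio of adult to cultured cells 2.42 without cultured G (0.00816 to 2.42), and the Mir99ahg ratio of adult to transplanted cells 10.5 without transplanted D (0.0303 to 10.5). In adult against transplanted cells, the median log2 ratio of the silencing complex list was -0.056 without adult H (-0.056 to 7.28), and that of the microRNA hosts 0.59 without transplanted B and 0.02 without transplanted C (-3.19 to 0.59). The cause was not tested. The shallow cultured cells limit what can be seen: their floor was 14.6 CPM, against 2.36 and 2.30 CPM in adult and transplanted cells.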
